A study of Mus musculus with 8 samples.

Results

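Myc, Mycn, Max, Lin28a and Lin28b, 5 genes, were followed across the 8 libraries. They were taken by symbol from the Ensembl gene rows of the knockdown and overexpression tables. All 5 were present in both tables, among 17938 genes of the knockdown table, 18292 of the overexpression table and 17409 of both. The cells were J1 mouse embryonic stem (ES) cells, with the strain given in the labels as 12910la, grown on gelatin in medium with 15% serum and leukaemia inhibitory factor (LIF, 10 ng/ml). KD Zscan4 cells had been transfected with pSuper puro, from which a hairpin RNA against Zscan4 was made, and KD control cells with a random control. Puromycin (2 µg/ml) was given for 7 days to these cells. OE Zscan4 cells had been transfected with Zscan4c cloned in pCMV-tag2, a plasmid whose promoter is that of cytomegalovirus, and OE control cells were its control. G418 (500 µg/ml) was given for 10 days to these cells. The genotype field reads wild type for both controls. Single clones were picked in both arms, and the labels do not say whether the 2 replicates of a group were different clones or cultures. Effects of a clone and of Zscan4 cannot be told apart, and a p-value here reflects the spread of these libraries alone, which may be technical.

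Myc and its paralog Mycn encode transcription factors with a basic helix-loop-helix leucine zipper domain. They bind DNA as dimers with Max, mostly at the E-box CACGTG, and act on genes of ribosome synthesis, nucleotide synthesis and the cell cycle. Lin28a and its paralog Lin28b encode RNA-binding proteins with a cold shock domain and zinc knuckles. They bind precursors of the let-7 microRNAs and block their maturation, while mature let-7 lowers Lin28, Myc and Mycn messages among others. In mouse ES cells Myc is known as a gene downstream of LIF, and Lin28a as a gene of pluripotent cells.

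The 5 genes were chosen by their values in both comparisons, since they were listed with earlier results known. Their levels and differences below are therefore a description, with no test. Values are reads divided by the authors' size factor of each library, differences are log2(value + 1) of the Zscan4 group minus its own control, and SE is that of limma, fitted over all genes of a table. Values written with ± are means and SD of 2 libraries, and a pair of differences gives the knockdown and then the overexpression. Called means a limma adjusted p (Benjamini-Hochberg over all genes of a table) under 0.05. Of the 5, 4 were called lower in KD Zscan4 and none higher, where 35.7% of all genes were called, 18.5% lower and 17.2% higher. In OE Zscan4 all 5 were called higher, where 44.3% of all genes were called, 22.3% higher and 22.1% lower. The libraries of the 2 groups did not overlap for any of the 5 in either comparison. That held for 67.8% of all genes in the knockdown (34% higher, 33.8% lower) and for 71.2% in the overexpression (35.7% higher, 35.5% lower). Nothing is read from these counts, since the choice of genes used both comparisons.

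The targeted gene followed the labels. The summed signal of the 6 genes Zscan4a to Zscan4f was 80.2 and 115 in KD Zscan4, against 2740 and 2539 in KD control. It was 4276 and 3814 in OE Zscan4, against 257 and 305 in OE control. Reads can be shared between these near-identical genes. The libraries held 17392177 to 22381633 reads in the gene tables. ES cell markers (Pou5f1, Nanog, Sox2, Zfp42, Esrrb, Tdgf1) summed to 102605 and 105432 in KD Zscan4, 99316 and 99436 in KD control, 118211 and 119312 in OE Zscan4, and 85684 and 86548 in OE control. Of the 6 ES cell markers, 3 were called higher and 1 lower in KD Zscan4, and 5 were called higher and none lower in OE Zscan4. Among all genes, 17.2% were called higher and 18.5% lower in the knockdown, and 22.3% and 22.1% in the overexpression. Markers of other cell types also differed between the groups. Of 9 primitive endoderm markers, all 9 fell in KD Zscan4, to a sum of 284 to 324, against 2741 to 2906 in KD control. Of 8 measured in the overexpression arm, 6 fell in OE Zscan4, to 333 to 350, against 577 to 592 in OE control. Of 7 and 6 measured fibroblast markers, 2 rose and 1 fell in KD Zscan4 (419 to 472, against 410 to 423 in KD control), and 3 fell in OE Zscan4 (354 to 380, against 855 to 856 in OE control). Of 8 and 7 measured 2-cell-like markers, 8 fell in KD Zscan4 (85.2 to 120, against 1964 to 2122 in KD control) and 6 rose in OE Zscan4 (3030 to 3333, against 219 to 243 in OE control). Zscan4c, Zscan4d and Zscan4f are among these markers and belong to the targeted family. Their direction therefore follows from the manipulation, and these sums are not independent of the Zscan4 sum above. No measured marker was at 0 in both libraries of a group. Their part in the results below was not tested, and in bulk RNA fewer cells of a type and less RNA per cell cannot be told apart.

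Myc (ENSMUSG00000022346) lies on chromosome 15, 61985391 to 61990374 of mm10, plus strand. It had 707 and 658 in KD Zscan4, against 2212 and 2270 in KD control. Both knockdown libraries held less than either control library, a log2 difference of -1.71 (SE 0.06). In the overexpression arm it had 804 and 776 in OE Zscan4, against 164 and 227 in OE control, a log2 difference of 2.03 (SE 0.12). The OE control libraries differed most for this gene: the difference was 1.80 without OE control replicate 1 and 2.26 without OE control replicate 2. Of all genes, 3.27% had a larger absolute difference than Myc in the knockdown and 2.25% in the overexpression.

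Mycn (ENSMUSG00000037169) lies on chromosome 12, 12936093 to 12941914, minus strand. It had 4008 and 4105 in KD Zscan4, against 6788 and 6968 in KD control, a log2 difference of -0.76 (SE 0.05). It had 4323 and 4198 in OE Zscan4, against 2026 and 2118 in OE control, a log2 difference of 1.04 (SE 0.07). Mycn thus differed the same way as Myc in both comparisons, with a smaller difference in each. Its promoter, chr12:12941787-12942086 (minus strand, RefSeq, GRCm38.p6), is shown with the motifs found in it in capitals, as for the other promoters below. It held the E2F-type motif TTTGGCGC at -183 and -168 and the GC box GGGCGG at -133 and, on the other strand, at -63, counted from the RefSeq start.
Mycn promoter: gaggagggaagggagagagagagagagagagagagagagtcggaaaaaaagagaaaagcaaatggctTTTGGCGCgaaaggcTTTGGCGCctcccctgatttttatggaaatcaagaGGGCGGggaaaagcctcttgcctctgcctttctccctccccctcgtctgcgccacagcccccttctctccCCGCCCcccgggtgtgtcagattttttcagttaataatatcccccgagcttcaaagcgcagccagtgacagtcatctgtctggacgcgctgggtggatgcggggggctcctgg

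Max (ENSMUSG00000059436), the shared dimer partner, lies on chromosome 12, 76937269 to 76962201, minus strand. It had 2143 and 2141 in KD Zscan4, against 2035 and 1928 in KD control, a log2 difference of 0.11 (SE 0.06) that was not called. It had 2140 and 2250 in OE Zscan4, against 1508 and 1607 in OE control, a log2 difference of 0.50 (SE 0.07). Max was the only one of the 5 genes with no lower level in KD Zscan4. Gm47218, on the same strand inside the span of Max, rose in KD Zscan4 to 36.5 and 28.1, against 8.06 and 15.7 in KD control (log2 difference 1.43, SE 0.38, limma adjusted p = 0.012). These are few reads beside those of Max. The Max promoter, chr12:76962199-76962498 (minus strand), held an E-box at -3.
Max promoter: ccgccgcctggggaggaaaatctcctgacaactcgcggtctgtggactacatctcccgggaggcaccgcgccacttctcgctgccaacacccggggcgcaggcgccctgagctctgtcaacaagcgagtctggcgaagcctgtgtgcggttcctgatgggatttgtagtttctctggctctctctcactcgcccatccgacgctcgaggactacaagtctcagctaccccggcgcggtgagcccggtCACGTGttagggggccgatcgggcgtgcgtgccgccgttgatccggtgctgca

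Lin28a (ENSMUSG00000050966) lies on chromosome 4, 134003330 to 134018841, minus strand. It had 3442 and 3486 in KD Zscan4, against 7048 and 7384 in KD control, a log2 difference of -1.06 (SE 0.05). It had 5607 and 5147 in OE Zscan4, against 3982 and 4067 in OE control, a log2 difference of 0.42 (SE 0.07). Its difference was thus larger than that of Mycn in the knockdown and smaller in the overexpression. Gm13061 is annotated on the opposite strand within the span of Lin28a. It fell in KD Zscan4 to 110 and 97.1, against 180 and 202 in KD control (log2 difference -0.88, SE 0.14, limma adjusted p = 4.9e-04). It rose in OE Zscan4 to 134 and 147, against 86.8 and 103 in OE control (0.56, SE 0.16, limma adjusted p = 0.0099). Whether the counting used strand is not stated, and only overlap of the spans was examined, not of exons. Whether reads of Lin28a were counted for Gm13061, or the reverse, was therefore not tested. The Lin28a promoter, chr4:134018767-134019066 (minus strand), held 1 GC box, on the other strand at 33.
Lin28a promoter: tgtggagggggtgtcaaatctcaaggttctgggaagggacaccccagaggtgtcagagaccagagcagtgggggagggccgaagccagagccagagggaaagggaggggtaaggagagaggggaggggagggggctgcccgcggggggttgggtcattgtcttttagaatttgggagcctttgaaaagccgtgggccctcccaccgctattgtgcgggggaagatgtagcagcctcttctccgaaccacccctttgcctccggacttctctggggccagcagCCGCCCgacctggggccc

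Lin28b (ENSMUSG00000063804) lies on chromosome 10, 45376620 to 45486395, minus strand. It had 415 and 465 in KD Zscan4, against 553 and 602 in KD control, a log2 difference of -0.39 (SE 0.09). It had 520 and 551 in OE Zscan4, against 378 and 358 in OE control, a log2 difference of 0.54 (SE 0.09). Its difference in the knockdown ranged from -0.47 to -0.31 when single libraries were left out. The Lin28b promoter, chr10:45470152-45470451 (minus strand), belongs to a start inside the annotated span and held an E-box at -49.
Lin28b promoter: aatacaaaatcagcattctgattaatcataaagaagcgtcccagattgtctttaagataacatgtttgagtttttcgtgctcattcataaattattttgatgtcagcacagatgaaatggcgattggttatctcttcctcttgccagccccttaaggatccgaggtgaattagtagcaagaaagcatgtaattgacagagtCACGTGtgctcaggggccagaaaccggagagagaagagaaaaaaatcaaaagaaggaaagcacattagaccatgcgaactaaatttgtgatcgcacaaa

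Of the 5 genes, 4 matched the promoter table. They were searched on both strands for 5 motifs, with no overlap between matches in these windows. The E-box CACGTG was in 7.15% of all 32851 promoters of this length, the E2F-type TTTGGCGC in 0.514% and the GC box GGGCGG in 35.7%. The TATA box TATAAA (13.6% of promoters) and the heptamer TGCACAC (4.40%), which has been reported for Zscan4, had no match in the 4 windows. A match is a description of letters, not a bound site.

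**Figure D1:**
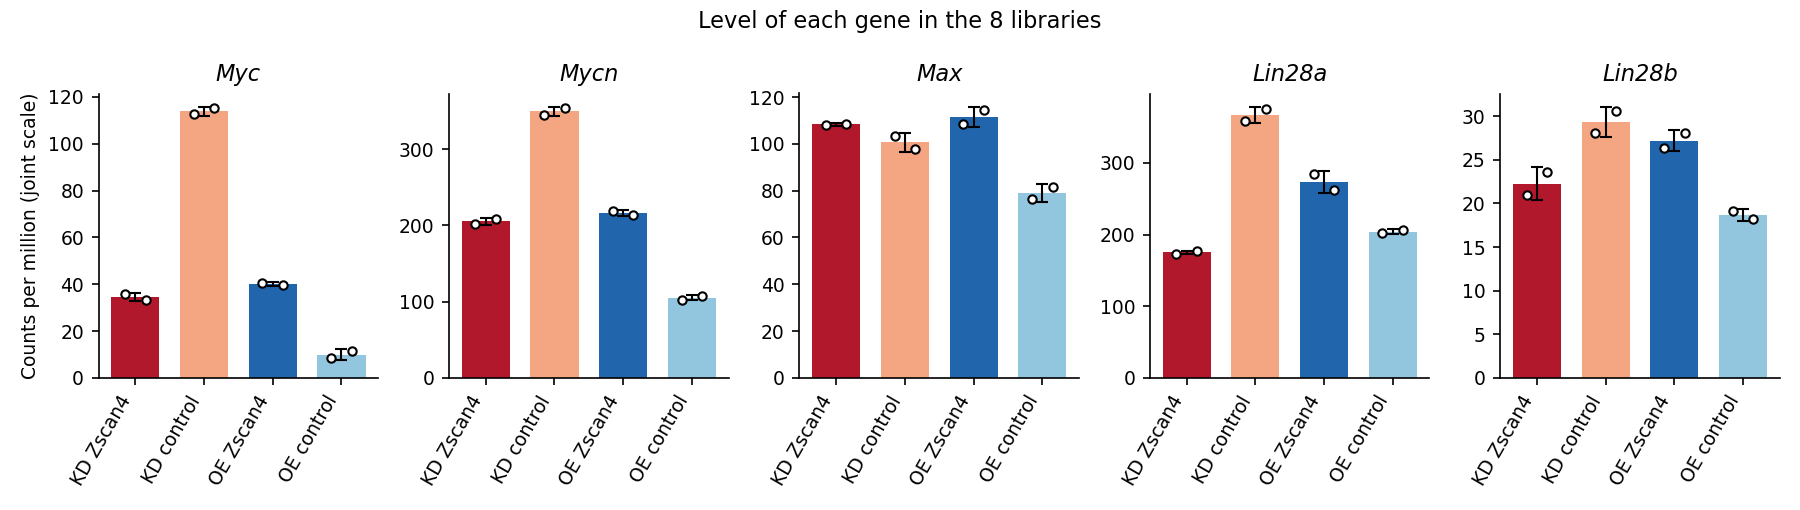
Level of each gene in CPM on a scale shared by the 8 libraries, for KD Zscan4, KD control, OE Zscan4 and OE control. Bars are means of 2 libraries, error bars SD and points single libraries. Myc, Mycn, Lin28a and Lin28b are highest in KD control, and Max is within 79.0 to 111 in all 4 groups.

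The levels were then set on one scale, CPM (reads scaled to a common library total) from the recovered reads with joint TMM factors, as a description. The tables were normalised separately, so groups of different arms were not tested against each other. The 2 controls differed widely. Myc averaged 114 ± 1.86 in KD control and 9.91 ± 2.27 in OE control (SD, n = 2 each), an 11.5-fold ratio. The ratio of KD control to OE control was 3.32 for Mycn, 1.80 for Lin28a, 1.57 for Lin28b and 1.27 for Max. The Zscan4 groups lay closer together: OE Zscan4 over KD Zscan4 was 1.16 for Myc, 1.05 for Mycn, 1.03 for Max, 1.22 for Lin28b and 1.56 for Lin28a.

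From high to low, the order of groups for Myc was KD control (114 ± 1.86), OE Zscan4 (40.1 ± 0.86), KD Zscan4 (34.5 ± 1.58) and OE control (9.91 ± 2.27). Mycn had the same order, with 349 ± 5.80 in KD control, 216 ± 3.78 in OE Zscan4, 205 ± 4.54 in KD Zscan4 and 105 ± 3.52 in OE control. So did Lin28b, with 29.3 ± 1.72 in KD control, 27.2 ± 1.22 in OE Zscan4, 22.3 ± 1.90 in KD Zscan4 and 18.7 ± 0.64 in OE control. The libraries of neighbouring groups did not overlap for Myc and Mycn. For Lin28b those of KD control (28.1 and 30.5) and OE Zscan4 (26.3 and 28.1) touched. Lin28a had KD control at 367 ± 11.4, OE Zscan4 at 273 ± 15.6, OE control at 204 ± 3.51 and KD Zscan4 at 175 ± 2.48, so that its lowest group was KD Zscan4. For Max, OE Zscan4 (111 ± 4.31), KD Zscan4 (108 ± 0.50) and KD control (101 ± 4.01) were within a narrow band, and the libraries of OE Zscan4 and KD Zscan4 overlapped. OE control (79.0 ± 3.74) was below them.

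The order of Zscan4 itself was different. Its sum on the same scale was highest in OE Zscan4 (205 ± 15.9), then in KD control (134 ± 7.45), OE control (14.3 ± 1.73) and KD Zscan4 (4.93 ± 1.25). None of the 5 genes had that order. In each arm Myc, Mycn, Lin28a and Lin28b were higher in the group with more Zscan4, but KD control, with less Zscan4 than OE Zscan4, had the highest level of each.

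Per kilobase of merged exons (GENCODE M21), paralogs could be set beside each other. In RPKM, Mycn averaged 62.3 ± 1.38 in KD Zscan4, 106 ± 1.76 in KD control, 65.6 ± 1.15 in OE Zscan4 and 31.9 ± 1.07 in OE control. Myc averaged 12.7 ± 0.58 in KD Zscan4, 41.9 ± 0.68 in KD control, 14.8 ± 0.32 in OE Zscan4 and 3.65 ± 0.83 in OE control. Mycn was thus the more abundant message in all 4 groups. The share of Myc in their summed level was 17.6% and 16.3% in KD Zscan4, against 28.3% in both KD control libraries. It was 18.4% and 18.3% in OE Zscan4, against 8.94% and 11.5% in OE control. Lin28a averaged 43.8 ± 0.62 in KD Zscan4, 91.7 ± 2.85 in KD control, 68.3 ± 3.90 in OE Zscan4 and 51.1 ± 0.88 in OE control. Lin28b made up 5.05% and 5.55% of the summed Lin28 level in KD Zscan4, against 3.34% and 3.47% in KD control. It made up 3.93% and 4.51% in OE Zscan4, against 4.01% and 3.74% in OE control, where the groups overlapped.

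**Figure D2:**
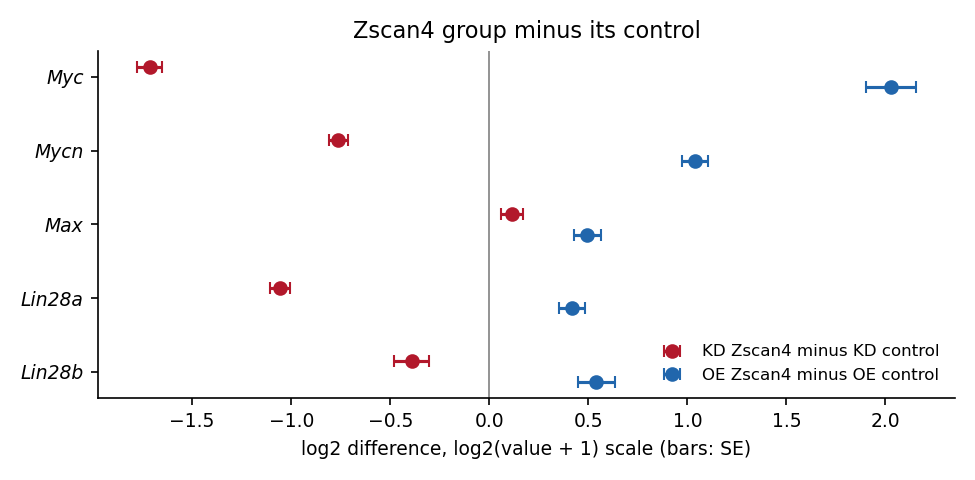
Log2 difference of the Zscan4 group minus its own control for the 5 genes, on the log2(value + 1) scale. Points are estimates from 2 against 2 libraries and bars are SE. Myc is farthest from 0 on both sides, at -1.71 and 2.03, and Max is at 0.11 and 0.50.

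The effect in the overexpression minus that in the knockdown, positive for all 5 genes, was 3.74 for Myc (SE 0.16), 1.80 for Mycn (SE 0.08), 1.48 for Lin28a (SE 0.08), 0.93 for Lin28b (SE 0.13) and 0.38 for Max (SE 0.09). These are again descriptions. For the genes outside the 5, limma tested the same difference over the 17409 genes of both tables, of which 44.7% were called (22.9% higher, 21.8% lower).

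Neighbouring genes were examined for each of the 5. Pvt1, a long noncoding RNA 47.6 kb from Myc, was at -0.41 in the knockdown (130 in KD Zscan4, 172 in KD control, SE 0.14, limma adjusted p = 0.038) and 0.02 in the overexpression (limma adjusted p = 0.94). On the other side, 1132 kb away, Fam84b fell to 20.3 in KD Zscan4, against 82.3 in KD control (-1.995, SE 0.26), and did not pass in the overexpression (-0.08). Ddx1, an RNA helicase gene 275 kb from Mycn, did not pass in the knockdown (0.10) and rose by 0.27 in OE Zscan4 (limma adjusted p = 0.0031). Fntb, a farnesyltransferase gene 15.9 kb from Max, fell in KD Zscan4 (-0.23, limma adjusted p = 0.019) and rose in OE Zscan4 (0.26, limma adjusted p = 0.011). Rpl36-ps3 beside Mycn and 9530018F02Rik beside Max had few reads and did not pass in either comparison. Crybg2, 42.0 kb from Lin28a, went the other way, with a rise of 0.33 in KD Zscan4 (limma adjusted p = 0.049) and a fall in OE Zscan4 (-0.41, limma adjusted p = 0.0077). Dhdds, 2.41 kb from Lin28a on the other side, did not pass in either comparison (0.12 and 0.18), nor did Bves (-0.07 and 0.20) and Hace1 (-0.01 and 0.13) beside Lin28b. The median protein-coding gene of chromosomes 4, 10, 12 and 15 was between -0.07 and 0.01 in the knockdown and between -0.01 and 0.06 in the overexpression.

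The genes most like each of the 5 were sought over the 8 libraries, by the root mean square difference of log2(value + 1) after subtraction of the control mean, among 14197 other genes. Gbx2, a homeobox gene of neural and naive ES cells, was nearest to Myc at 0.086, followed by Wt1 (0.22), a zinc finger gene, and Gm29361 (0.23). Gbx2 was at -1.70 in the knockdown and 2.11 in the overexpression. It lies on chromosome 1, whose genes were shifted upward in KD Zscan4. The cyclin gene Ccnd1 was nearest to Mycn (0.034), followed by Arrdc3 (0.047) and the kinase gene Plk3 (0.067). Hnrnpr, Tmcc1 and Traip were nearest to Max (0.036 to 0.038), Adap1, Srxn1 and Ext1 to Lin28a (0.040 to 0.073), and Hirip3, Nqo1 and Impact to Lin28b (0.031 to 0.038). Mycn was in position 96 among genes like Myc, but Myc was in position 7749 among genes like Mycn. Lin28b was in position 415 among genes like Mycn, and Mycn in position 4582 among genes like Lin28b.

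Of 10 other measured genes of the Max network, 2 rose and 4 fell in KD Zscan4, where 17.2% of all genes were called higher and 18.5% lower. Their median log2 difference was -0.16, beside 0.0078 for all genes. In OE Zscan4 3 of the 10 rose and 1 fell, where 22.3% of all genes were called higher and 22.1% lower. Their median there was 0.14, beside -0.0022 for all genes. Mnt, a repressor that dimerises with Max, fell in KD Zscan4 to 828 ± 37.3, against 1005 ± 19.4 in KD control (-0.28, SE 0.07, limma adjusted p = 0.0067). It rose in OE Zscan4 to 693 ± 6.42, against 498 ± 30.0 in OE control (0.48, SE 0.09, limma adjusted p = 2.5e-04). Mnt lies on chromosome 11, whose median protein-coding gene was at -0.34 in OE Zscan4. Its effects differed between the arms by 0.76 (limma adjusted p = 2.4e-05). Mxi1, another repressor, rose in KD Zscan4 to 822 ± 23.0, against 612 ± 21.4 in KD control (0.43, SE 0.07), and did not pass in the overexpression (-0.13, difference of effects -0.56, limma adjusted p = 3.7e-04). Mycl, the third Myc paralog, rose in both, by 0.26 in KD Zscan4 (647 ± 18.9, against 542 ± 8.85 in KD control) and by 0.28 in OE Zscan4 (463 ± 9.64, against 380 ± 3.21 in OE control). Its effects did not pass as different (0.03, limma adjusted p = 0.86).

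The Max dimer repressor genes Mxd3 (-0.32) and Mxd4 (-0.51) and the glucose-responsive factor gene Mlxip (-0.25) also fell in KD Zscan4. In OE Zscan4 Mga (0.25), a Max partner with a T-box, rose and Mlxipl (-0.47) fell. Mxd1 and Mlx did not pass in either comparison. These calls were weak. Those of Mycl, Mxd3, Mxd4, Mlxip, Mga and Mlxipl were lost with DESeq2 and without single libraries, and Mga was at 0.07 without OE control replicate 1. Without KD control replicate 2 only 3 of the 10 were called in the knockdown. Without OE Zscan4 replicate 1 or 2 only 2 or 1 were called in the overexpression. DESeq2 called 2 and 1.

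**Figure D3:**
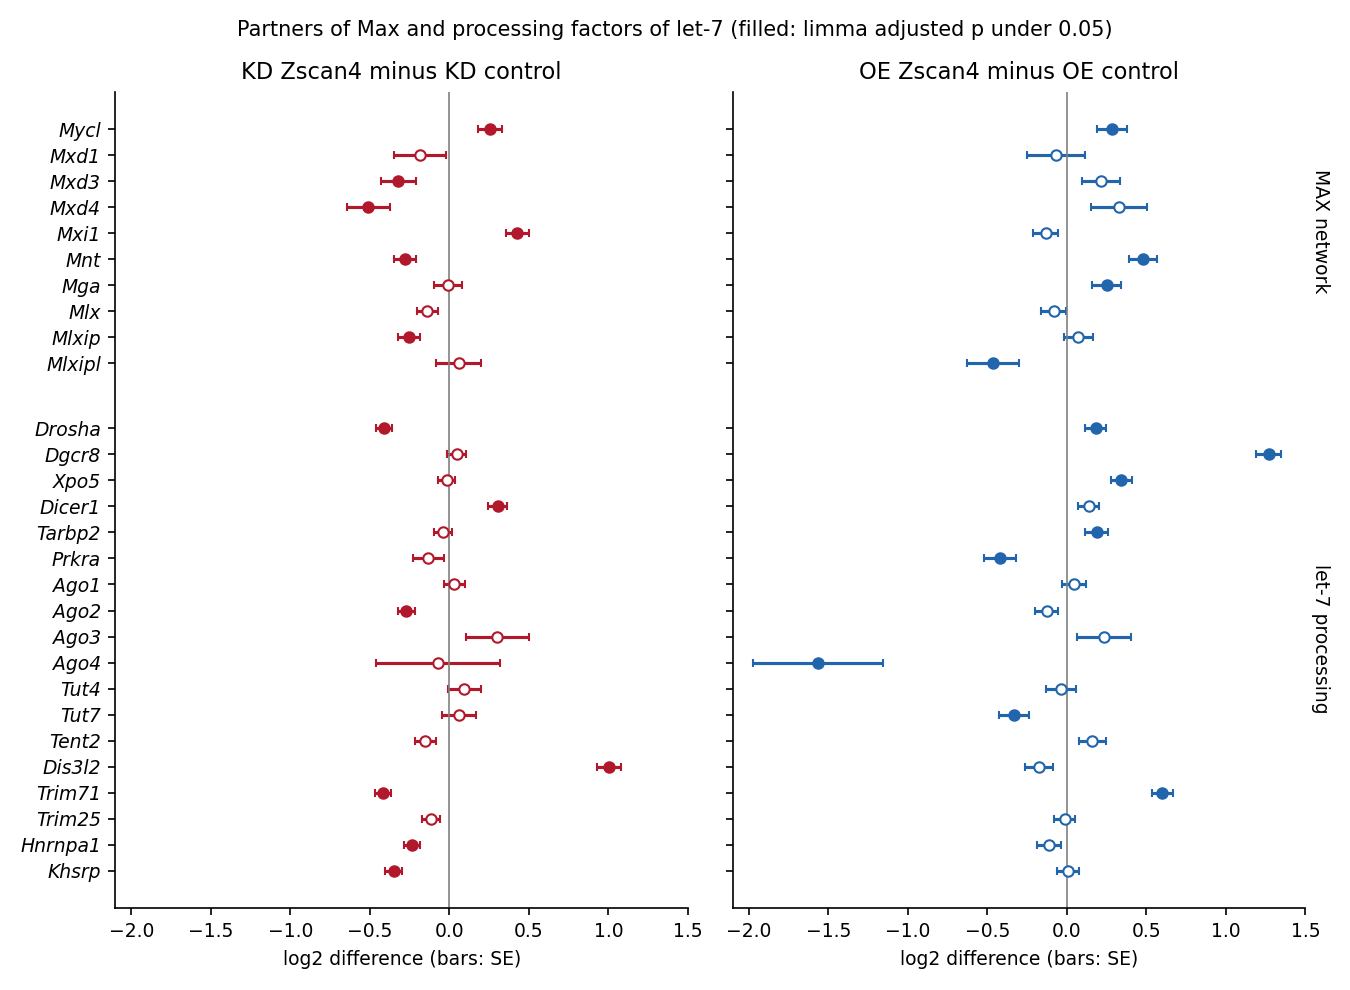
Log2 differences (bars are SE) of 10 Max network genes and 18 let-7 processing genes, KD Zscan4 minus KD control on the left and OE Zscan4 minus OE control on the right. Filled points passed limma at an adjusted p of 0.05. Mnt, Drosha and Trim71 are filled on opposite sides of 0, and Dgcr8 stands at 1.27 in the overexpression.

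Of 23 cofactors and turnover factors of the Myc protein, 14 (60.9%) fell and 1 (4.35%) rose in KD Zscan4, with a median of -0.18, where 18.5% of all genes were called lower and 17.2% higher. In OE Zscan4 13 (56.5%) rose and 4 (17.4%) fell, with a median of 0.20, where 22.3% of all genes were called higher and 22.1% lower. Tfap4, a helix-loop-helix factor gene activated by Myc, was placed on this list and not among the genes Myc activates. It fell to 423 ± 18.96 in KD Zscan4, against 674 ± 25.01 in KD control (-0.67, SE 0.08, limma adjusted p = 5.0e-05). It rose to 419 ± 33.1 in OE Zscan4, against 270 ± 15.4 in OE control (0.63, SE 0.11, limma adjusted p = 1.3e-04), and the effects differed by 1.30 (limma adjusted p = 9.0e-07). Fbxw7, a ubiquitin ligase gene that targets Myc protein, fell by 0.45 on the log2 scale in KD Zscan4 and rose by 0.28 in OE Zscan4. In the knockdown Bin1 (-0.79), whose product binds Myc, and the acetyltransferase gene Kat2a (-0.38) fell. Wdr5 (0.55) and Hcfc1 (0.51), genes of chromatin cofactors, rose in OE Zscan4. Kat2a fell there too (-0.49). It lies on chromosome 11, whose median protein-coding gene was at -0.34 in OE Zscan4. Without KD control replicate 2, 5 of the 23 were called in the knockdown, and without OE Zscan4 replicate 1 or 2, 11 or 10 in the overexpression.

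Of 46 genes that Myc is known to activate, 33 (71.7%) rose and 2 (4.35%) fell in OE Zscan4, with a median of 0.35, where 22.3% of all genes were called higher and 22.1% lower. In KD Zscan4 18 (39.1%) fell and 10 (21.7%) rose, with a median of -0.08, where 18.5% of all genes were called lower and 17.2% higher. Of the 46, 14 (30.4%) were called lower in the knockdown and higher in the overexpression, a pattern of 6.65% of the 17409 genes of both tables. Another 8 (17.4%) were called higher in both, beside 3.88% of those genes. The reverse crossing held for 1 (2.17%), beside 5.67%, and none was lower in both, beside 3.60%. Odc1, the ornithine decarboxylase gene of polyamine synthesis, fell to 16083 ± 558 in KD Zscan4, against 25943 ± 42.6 in KD control (-0.69, SE 0.05, limma adjusted p = 8.3e-07). It rose to 21014 ± 182 in OE Zscan4, against 11120 ± 497 in OE control (0.92, SE 0.07, limma adjusted p = 1.5e-08), and the effects differed by 1.61 (limma adjusted p = 1.9e-10). The spermidine synthase gene Srm followed, at -0.52 and 0.66, with a difference of effects of 1.18 (limma adjusted p = 2.1e-08).

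Nop56, a nucleolar gene, rose in OE Zscan4 to 14412 ± 482, against 7645 ± 440 in OE control (0.92, SE 0.07), and did not pass in the knockdown (-0.12). The cyclin gene Ccnd2 had the largest rise of this list in OE Zscan4, to 869 ± 6.604, against 200 ± 17.9 in OE control (2.12, SE 0.10, limma adjusted p = 3.3e-11). Ccnd2 rose in KD Zscan4 too, by 0.50. The transferrin receptor gene Tfrc went the other way from Odc1, with 8916 ± 33.3 in KD Zscan4 and 7490 ± 122 in KD control (0.25, limma adjusted p = 0.0014). It had 6585 ± 185 in OE Zscan4 and 12428 ± 516 in OE control (-0.92, limma adjusted p = 1.1e-08). Ncl (0.66) and Hspe1 (0.64) were the largest rises in KD Zscan4. Both lie on chromosome 1, where 91.0% of protein-coding genes were positive in KD Zscan4 with a median of 0.56. Without genes of chromosomes 1, 11 and Y, a choice made after seeing the data, 18 of 35 fell and 5 rose in KD Zscan4, and 26 rose and 2 fell in OE Zscan4. Without KD control replicate 2, 17 of the 46 were called in the knockdown. Of 39 promoters matched in this list, 13 (33.3%) held CACGTG, against 8.09% of all 27025 genes with a promoter. The list was drawn up for known activation by Myc, which binds mostly at CACGTG. Nothing about these libraries is read from this share.

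Of 13 genes that Myc is known to repress, 6 (46.2%) fell and 2 (15.4%) rose in KD Zscan4, with a median of -0.20, where 18.5% of all genes were called lower and 17.2% higher. In OE Zscan4 9 (69.2%) fell and 1 (7.69%) rose, with a median of -0.70, where 22.1% of all genes were called lower and 22.3% higher. The cyclin-dependent kinase inhibitor gene Cdkn1a fell in OE Zscan4 to 611 ± 1.60, against 1561 ± 30.4 in OE control (-1.35, SE 0.07, limma adjusted p = 3.6e-10). It did not pass in the knockdown (-0.20). Cdkn2c fell in both, to 8.43 ± 0.44 in KD Zscan4 against 31.8 ± 0.56 in KD control (-1.80), and to 15.1 ± 2.73 in OE Zscan4 against 42.1 ± 1.21 in OE control (-1.43). Ndrg1 (-0.53 and -1.90), the growth arrest gene Gas1 (-0.99 and -0.59) and Cdkn2b (-1.02 and -1.04) also fell in both. Gadd45a, a stress response gene, was the only one of the list to rise in OE Zscan4, to 955 ± 9.66, against 444 ± 40.2 in OE control (1.11, SE 0.09), and it fell in KD Zscan4 (-0.20, limma adjusted p = 0.029). Pdgfrb, a receptor gene of mesenchyme that is also on the fibroblast list, rose by 0.79 in KD Zscan4 and fell by 1.98 in OE Zscan4. The Cdkn2b call in the knockdown was lost with DESeq2 and without KD control replicate 1 or 2 or KD Zscan4 replicate 2, and the Pdgfrb rise without KD control replicate 2 or KD Zscan4 replicate 1. DESeq2 called 5 of the 13 in the knockdown, and 4 were called without KD control replicate 2.

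**Figure D4:**
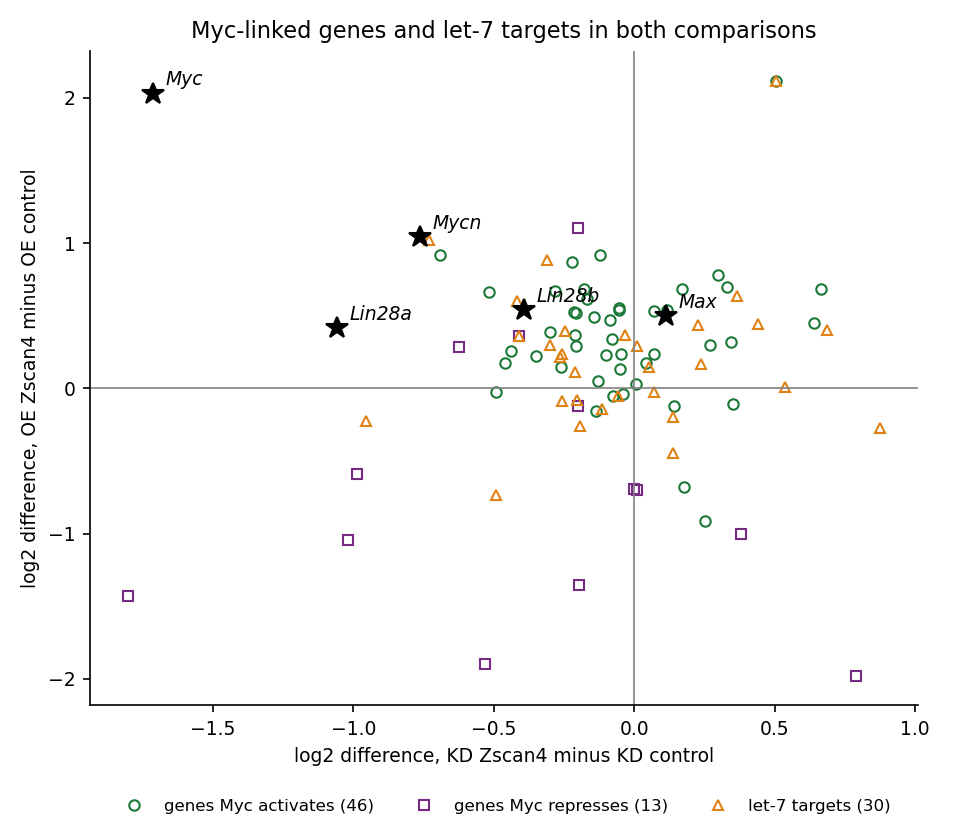
Log2 difference in the knockdown (horizontal) and in the overexpression (vertical) for genes Myc activates (46), genes Myc represses (13) and let-7 targets (30), with the 5 genes as stars. Myc, Mycn, Lin28a and Lin28b lie in the upper left, and most genes Myc activates lie above 0 on the vertical axis, with a median of 0.35.

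The let-7 microRNAs share their seed (bases 2 to 8, in capitals). The let-7 targets below were taken as a list, and matches to this seed in them are not reported here. Of 13 mature entries of the family in the RefSeq table (GRCm38.p6), 12 had the seed GAGGUAG. Mature let-7 levels were not analysed here.
let-7a-5p: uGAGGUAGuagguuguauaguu
let-7b-5p: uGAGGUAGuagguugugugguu
let-7c-5p: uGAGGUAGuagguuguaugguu
let-7d-5p: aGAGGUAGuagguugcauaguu
let-7e-5p: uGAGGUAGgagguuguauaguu
let-7f-5p: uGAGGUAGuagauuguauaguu
let-7g-5p: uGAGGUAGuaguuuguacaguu
let-7i-5p: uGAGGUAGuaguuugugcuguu
miR-98-5p: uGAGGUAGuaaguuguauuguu

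The zinc knuckles of Lin28 recognise GGAG in the terminal loop of the precursor, between the mature arms. Of 11 hairpins with both arms annotated, 8 held GGAG in the loop. The hairpins inside measured protein-coding host genes are shown with it in capitals, and that of miR-98 has none. They lie at chr9:106178840-106178927 (Mirlet7g), chrX:151912346-151912428 (Mirlet7f-2), chr17:17830352-17830444 (Mirlet7e) and chrX:151913214-151913321 (Mir98), all on the plus strand.
Mirlet7g hairpin: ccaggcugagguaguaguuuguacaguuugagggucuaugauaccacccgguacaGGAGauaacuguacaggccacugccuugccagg
Mirlet7f-2 hairpin: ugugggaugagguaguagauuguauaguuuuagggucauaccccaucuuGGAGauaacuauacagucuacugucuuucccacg
Mirlet7e hairpin: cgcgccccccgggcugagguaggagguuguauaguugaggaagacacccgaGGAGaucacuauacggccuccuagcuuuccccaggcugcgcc
Mir98 hairpin: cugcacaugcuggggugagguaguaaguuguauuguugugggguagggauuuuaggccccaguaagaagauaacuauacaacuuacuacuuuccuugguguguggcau

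Of 4 measured host genes of let-7, none was called higher in KD Zscan4, where 17.2% of all genes were. Nothing is read from so small a count. Wdr82, whose span holds Mirlet7g, was at 4395 in KD Zscan4 and 4881 in KD control (-0.15, SE 0.05, limma adjusted p = 0.029), and rose in OE Zscan4 to 4354, against 3299 in OE control (0.40, SE 0.07, limma adjusted p = 1.0e-04). Huwe1, which holds Mirlet7f-2 and Mir98 and encodes a ubiquitin ligase that acts on Myc, did not pass in the knockdown (-0.10) and rose in OE Zscan4 by 0.28 (limma adjusted p = 0.0020). Spaca6, which holds Mirlet7e, did not pass in either comparison (0.01 and 0.19), nor did the noncoding gene 6720427I07Rik that holds Mirlet7a-1, Mirlet7d and Mirlet7f-1 (-0.51 and -0.35). The message of a host gene is not a measure of the microRNA.

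Among 18 genes of let-7 processing, 2 rose and 5 fell in KD Zscan4 (median -0.05), and 5 rose and 3 fell in OE Zscan4 (median 0.02). The shares called, 38.9% in the knockdown and 44.4% in the overexpression, were near those of all genes, 35.7% and 44.3%. Trim71, which encodes a ubiquitin ligase and RNA-binding protein and is itself a let-7 target, fell to 4386 ± 51.5 in KD Zscan4, against 5855 ± 193 in KD control (-0.42, SE 0.05, limma adjusted p = 5.3e-05). It rose to 4492 ± 137 in OE Zscan4, against 2965 ± 107 in OE control (0.60, SE 0.07, limma adjusted p = 1.4e-06), and the effects differed by 1.02 (limma adjusted p = 4.5e-08). Drosha, the nuclear nuclease of microRNA processing, fell by 0.41 on the log2 scale in KD Zscan4 and rose by 0.18 in OE Zscan4. Its partner gene Dgcr8 rose in OE Zscan4 to 1388 ± 9.81, against 576 ± 27.2 in OE control (1.27, SE 0.08, limma adjusted p = 1.4e-09), and did not pass in the knockdown (0.045).

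Dis3l2, the nuclease that degrades uridylated let-7 precursors, rose in KD Zscan4 to 832 ± 28.3, against 415 ± 14.7 in KD control (1.00, SE 0.08, limma adjusted p = 1.4e-06). It lies on chromosome 1, whose median protein-coding gene was at 0.56 in KD Zscan4. The part of that shift in the rise of Dis3l2 was not tested. Dis3l2 did not pass in the overexpression (-0.18). Of the terminal uridylyl transferase genes that act with Lin28a, Tut4 did not pass in either comparison (0.09 and -0.04), and Tut7 fell in OE Zscan4 (-0.33). In KD Zscan4 Dicer1 (0.30) rose and Khsrp (-0.35), Ago2 (-0.27) and Hnrnpa1 (-0.23) fell. In OE Zscan4 Xpo5 (0.34) and Tarbp2 (0.19) rose and Ago4 (-1.56) and Prkra (-0.42) fell. The overexpression calls of Drosha and Tarbp2 were lost with TMM scaling, with DESeq2 and without either OE Zscan4 library. Those of Ago4 and Tut7 were lost with DESeq2 and without OE Zscan4 replicate 1, and that of Hnrnpa1 without either KD control library. DESeq2 called 4 of the 18 in the overexpression, as did limma without OE Zscan4 replicate 1.

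Of 30 measured let-7 targets, 7 (23.3%) rose and 9 (30.0%) fell in KD Zscan4, with a median of -0.09, where 17.2% of all genes were called higher and 18.5% lower. In OE Zscan4 14 (46.7%) rose and 3 (10.0%) fell, with a median of 0.19, where 22.3% of all genes were called higher and 22.1% lower. Of the 30, 7 (23.3%) were called lower in the knockdown and higher in the overexpression, as were 6.65% of all genes of both tables. They were Hmga1, Igf2bp1, Nras, Arid3b, Trim71, Cdc25a and Ccnd1. A further 4 (13.3%) were called higher in both, beside 3.88% of all genes, and 2 (6.67%) lower in both, beside 3.60%. Ccnd1, which encodes cyclin D1, fell to 2153 ± 29.8 in KD Zscan4, against 3572 ± 36.7 in KD control (-0.73, SE 0.05, limma adjusted p = 8.5e-07). It rose to 2240 ± 149 in OE Zscan4, against 1100 ± 45.3 in OE control (1.02, SE 0.07, limma adjusted p = 1.0e-08), and the effects differed by 1.75 (limma adjusted p = 2.8e-10). Igf2bp1, an RNA-binding protein gene, was at -0.31 and 0.88. Hmga2, a chromatin protein gene, rose in both (0.37 in KD Zscan4 and 0.64 in OE Zscan4), as did the kinase gene Map4k4 on chromosome 1 (0.69 and 0.40). Bach1 fell in both (-0.49 and -0.74). Plag1 rose in KD Zscan4 (0.88), a call lost with DESeq2 and without KD Zscan4 replicate 2. Ccnd2 and Trim71 stand on more than 1 list.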

How the data were processed

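Messenger RNA was sequenced in 8 libraries, 2 in each of 4 groups, with groups taken from the titles. Per the submitters' processing notes, the tools were cutadapt, HISAT2, featureCounts and DESeq2 with build mm10, and versions and the strand setting are not given in the sources used here. The authors deposited normalised signal values per gene. Tested on the files, 100% of values multiplied by 1 factor per library lay within 0.01 of a whole read, and edgeR on these reads called 6483 genes in the knockdown and 8185 in the overexpression.

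Each arm was fitted alone with limma 3.58.1 (trend) in R 4.3.3 on log2(value + 1), which understates changes of low genes, two-sided, at a false discovery rate of 0.05 over all genes. No set test was run. Symbols matched 99.9% of IDs in the knockdown table and 99.8% in the overexpression table. The 5 genes, the lists and the naming rule were chosen with earlier results of these data known. The rule named, per list and comparison, up to 4 called genes with the largest change and separated groups, every gene of the Max network and of let-7 processing, 3 genes most like each of the 5, their neighbours and let-7 hosts. Hmga2, Gadd45a and the let-7 targets named for opposite changes were chosen after their values were seen. Libraries of a group differed by more than counting noise (chi-square per degree of freedom 2.94 to 4.96). The procedure was also run on simulated data. Its libraries were drawn as independent, so it cannot speak to clones or to technical replicates. Sequences are from RefSeq (GRCm38.p6), and exon lengths and neighbours from GENCODE M21. Repeat tables were not used here, and some genes that the rule names are not reported here.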

Additional observations from a re-analysis of the deposited data

How the results depend on the processing

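Each of the 10 differences of the 5 genes kept its sign under 13 other settings, and each difference of effects under 16. Those settings were pseudocounts of 0.5 and 8, a minimum mean of 20, TMM scaling, limma-voom, edgeR, DESeq2, a replicate block, single libraries left out and, within an arm, 1 fit of all 8 libraries. Several of these could not change a sign. The minimum mean, the replicate block and the fit of all 8 libraries leave the difference itself unchanged. Within an arm the groups did not overlap, so leaving out 1 library could not reverse it. Leaving out single libraries moved Myc in the overexpression (1.80 to 2.26) and the difference of effects of Myc (3.51 to 3.97) and Lin28a (1.41 to 1.54) by more than 1 SD. DESeq2 called 4141 genes in the knockdown, against 6403 with limma, and 5661 in the overexpression, against 8111. Fewer genes were also called when any single library was left out. The list counts from such fits stand beside that lower number for all genes. Replicate numbers are shared between groups but nothing pairs the libraries: deviations of same-numbered libraries correlated at -0.06 and -0.04 over genes. With a replicate block, 6924 genes were called in the knockdown, 8188 in the overexpression and 7388 in the difference of effects, against 6403, 8111 and 7787 without it. Of 56 single gene calls examined in the lists, 41 held under every setting, 15 were lost under at least 1 and none reversed. With 2 libraries a group, small differences such as that of Max in the knockdown are at the limit of detection.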
